A study of Homo sapiens with 2 samples.

Results

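The EGFR locus was described from the chromatin loops of H3K27ac HiChIP in KYSE180, an established esophageal squamous cell carcinoma line transfected with a non-targeting siRNA and measured in 2 libraries of that 1 condition. HiChIP pulls down ligated DNA with an antibody, here against H3K27ac, a histone mark of active promoters and enhancers, and each ligated read pair is a contact between 2 places. The study's methods describe the called loops as p63-associated and active, so a bin without a loop in the list may still carry H3K27ac or other contacts. The authors deposited 1 list of loops for both libraries, so no value has a replicate spread, no test across samples was possible, and the depth per library is unknown. The list holds no expression values, so the label of the cell line was not checked against marker genes. Each loop joins a pair of bins of 2 kb and carries its contacts and the coverage of its first bin, the one at the lower position. The locus was taken as all loops with at least 1 bin starting between positions 54800000 and 55500000 of chromosome 7 (hg19), where EGFR runs from 55086725 to 55275031 on the plus strand. Of the 31950 loops of the list, 101 (0.316%, 95% Wilson interval 0.260 to 0.384%) met this rule, and they held 103 contacts.

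EGFR encodes a receptor tyrosine kinase of the plasma membrane. Binding of EGF-family ligands pairs the receptors and starts signalling through the RAS-MAPK and PI3K-AKT pathways, which drives proliferation and migration of squamous epithelial cells, and the gene is often overexpressed in squamous cell carcinomas. Its promoter is known as GC-rich and without a TATA box, and enhancers are known to lie in the long first intron as well as upstream. In the order of protein-coding genes SEC61G, a subunit of the channel that takes proteins into the endoplasmic reticulum, comes before EGFR and LANCL2, a LanC-like protein, after it, and the long noncoding RNA gene EGFR-AS1 lies inside EGFR. Their hg19 positions were not used here, so no loop was assigned to them.

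RefSeq lists 2 starts of EGFR on the plus strand, and the sequence around each is shown because 3 of the 4 bins with the highest coverage of the locus lay at or beside these starts. Each runs from 250 bases before the start to 50 bases from it, on GRCh38.p14, at chr7:55018767-55019066 for the first and chr7:55109589-55109888 for the second. Capitals mark GC boxes (GGGCGG or CCGCCC, the binding sequence of SP1-type factors) in the first and AP-1 motifs (TGANTCA, the binding sequence of JUN and FOS dimers) in the second.
EGFR first start: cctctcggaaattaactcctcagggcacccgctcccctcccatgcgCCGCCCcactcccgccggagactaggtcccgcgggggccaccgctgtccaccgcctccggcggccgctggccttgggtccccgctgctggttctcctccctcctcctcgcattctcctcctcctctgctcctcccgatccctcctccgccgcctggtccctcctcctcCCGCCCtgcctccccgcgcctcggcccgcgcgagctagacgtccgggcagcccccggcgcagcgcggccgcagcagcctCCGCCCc
EGFR second start: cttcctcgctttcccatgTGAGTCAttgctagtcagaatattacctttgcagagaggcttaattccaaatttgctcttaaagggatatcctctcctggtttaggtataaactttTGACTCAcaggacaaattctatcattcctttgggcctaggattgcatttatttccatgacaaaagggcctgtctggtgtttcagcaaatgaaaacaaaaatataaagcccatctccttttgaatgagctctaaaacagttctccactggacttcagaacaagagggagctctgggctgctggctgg

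The first start had a GC content of 75.3% with 33 CpG dinucleotides, against a median of 58.7% and 14 over the 35116 RefSeq promoters of this length. It held 3 GC boxes, 0 AP-1 motifs and 0 TATAAA sequences on either strand. The second start differed in each of these counts, with a GC content of 42.0%, 1 CpG, 0 GC boxes, 2 AP-1 motifs and 2 TATAAA sequences. A GC box occurred in 45.0% of all promoters, an AP-1 motif in 7.71% and TATAAA in 11.5%. These matches describe letters and not binding, which was not measured here.

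The loops of the locus lay mostly upstream of EGFR and in its first intron, and 1 ended in the rest of the gene. Of the 101 loops, 59 (58.4%, Wilson interval 48.7 to 67.5%) had an end in the promoter or the gene. The share of all 2 kb bins of the genome that have a loop was not counted. The bins of the window were divided into an upstream part up to 55084000, the promoter (bins that reach into the 1 kb on either side of the 5′ end, 55084001 to 55088000), the first intron up to 55210000, the rest of the gene and the part downstream. The end of the intron was set by the lengths of exon 1 (349 bases) and intron 1 (122.9 kb) in the GRCh38 annotation, laid from the hg19 5′ end, on the assumption that these lengths are the same on hg19. Of the 142 upstream bins, 37 had a loop (26.1%, Wilson interval 19.5 to 33.8%), and of the 61 bins of the first intron, 24 had one (39.3%, 28.1 to 51.9%). In the rest of the gene, which holds the exons that follow and EGFR-AS1, 1 of 33 bins had a loop (3.03%, 0.537 to 15.3%), and it was the bin next to the first intron. Downstream, 6 of 112 bins had one (5.36%, 2.48 to 11.2%). The intervals of the upstream part and the first intron overlapped neither that of the rest of the gene nor that of the downstream part. This compares parts of 1 window only. Without the share over all bins of the genome, it does not show that the rest of the gene lacked loops. After the bin that ends at 55212000, no bin had a loop for 70 kb, which takes in the whole remainder of EGFR.

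**Figure D1:**
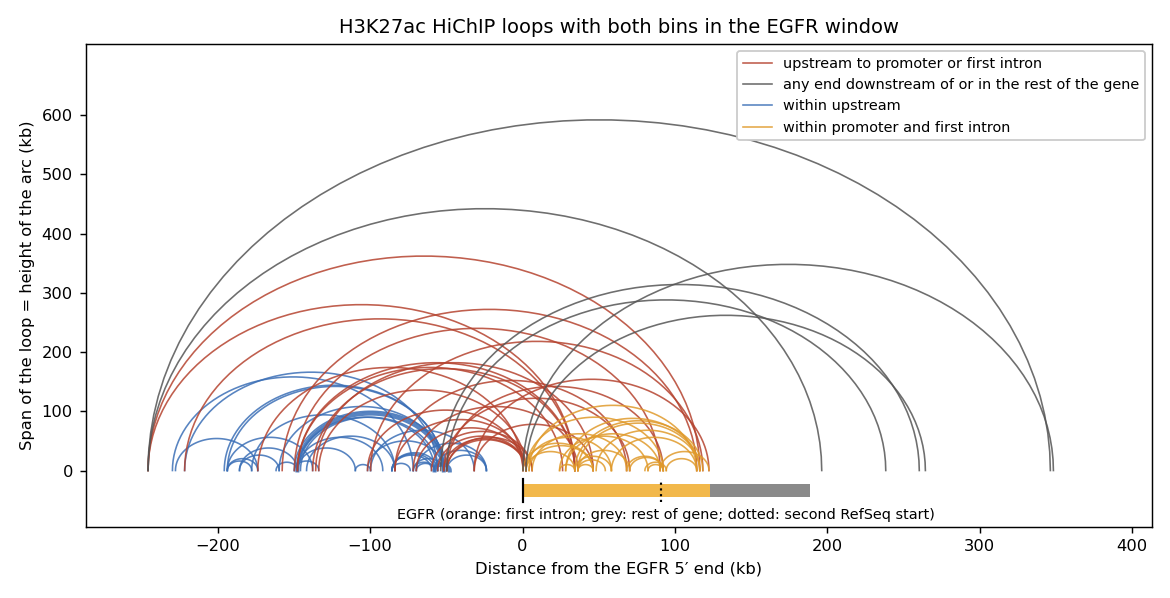
Arcs join the bins of the 92 loops with both bins in the window, by distance from the EGFR 5′ end (kb), and the height of an arc is the span of the loop (kb). Thick arcs are the 2 loops with 2 contacts, and the bar is EGFR with its first intron in orange. Arcs crowd from about 250 kb upstream to the end of the first intron, and 1 loop has an end in the grey remainder of the gene but leaves the window and is not drawn.

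Of the 101 loops, 35 ran between upstream bins (34.7%, Wilson interval 26.1 to 44.3%), 24 between the upstream part and the first intron (23.8%, 16.5 to 32.9%) and 24 within the first intron (23.8%, 16.5 to 32.9%). The upstream-to-intron loops spanned 52 to 362 kb with a median of 147 kb, whereas the loops within the intron spanned 10 to 110 kb with a median of 38 kb. The equal counts came from unequal numbers of possible pairs. Leaving out the 8 kb of touching bins at the 5′ end, 16 of 777 pairs of looped bins between the upstream part and the first intron were joined (2.06%, 1.27 to 3.32%), against 18 of 184 within the intron (9.78%, 6.28 to 14.9%), where the bins lie closer together. In all, 55 loops (54.5%, 44.8 to 63.8%) had an end in the first intron. The remaining loops were 4 of the promoter, 5 from the upstream part or the first intron to the downstream part, and 9 that left the window.

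The promoter had the highest coverage of the locus but not the most loops. The bin with the 5′ end, 55086001 to 55088000, had 4 loops with 1 contact each, and the other promoter bin had 0, a count that allows up to 3 contacts. The exact 95% Poisson interval of these 4 loops ran from 1.09 to 10.2, and like all intervals here it covers counting error only. The 4 partners of the promoter were 54912001 to 54914000 (span 174 kb) and 54984001 to 54986000 (102 kb) upstream, 55132001 to 55134000 (46 kb) in the first intron, and 55434001 to 55436000 (348 kb) downstream of the gene. Of the 57530 windows of 2 adjacent bins with a loop in the list, 15.3% had as many loops. The coverage of the 5′ end bin was 100 counts and 0.416% of the 21636 first bins of the list had as much.

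The next bin, 55088001 to 55090000, at the start of the first intron, was picked for having the most loops of the 69 looped bins in the window. It had 10 loops with 1 contact each and a coverage of 86, and 0.622% of all bins with a loop had as many. Of its partners, 6 lay upstream, at 54952001, 55002001, 55016001, 55030001, 55034001 and 55036001, and 3 lay in the first intron, at 55120001, 55144001 and 55178001. The last, at 55350001, lay downstream of EGFR, 262 kb away. This bin touches the bin of the 5′ end, and with the bins that follow it forms a run of touching bins from 55086001 to 55094000, a stretch of 8 kb. Of all stretches in the list, 2.62% were as long or longer. The stretch had 19 loops (Poisson interval 11.4 to 29.7), 10 to the upstream part, 7 to the first intron beyond it and 2 downstream, and 0.483% of windows of 4 adjacent bins with a loop had as many. The stretch was chosen as a window after its loops were seen.

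Upstream of EGFR the loops met in a stretch of 14 kb from 55026001 to 55040000, centred 53.7 kb upstream of the 5′ end. It was picked as the longest of the 35 stretches in the window, and 0.181% of the 22628 stretches of the list were as long or longer. It had 27 loops, of which 26 ran to 13 other stretches and 1 joined bins of the stretch itself. Its bin 55034001 to 55036000 had 8 loops with 9 contacts and a coverage of 41, and it was joined to 6 upstream bins, to 55088001 beside the promoter and to 55156001 in the first intron. Its bins 55028001 and 55036001 had 6 loops each. The gap between the looped bin at 55062001 and the 5′ end bin was 22 kb and held no looped bin.

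The stretch at the 5′ end and this upstream stretch were joined by 5 loops, the most of any pair of stretches with an end in the window. The loops ran from 55026001 and 55036001 to 55092001 and from 55030001, 55034001 and 55036001 to 55088001, with spans of 52 to 66 kb and 1 contact each. In the list, 0.296% of the 28371 joined pairs of stretches had at least 5 loops. Both stretches are long, however, and 5 of their 28 possible bin pairs were joined (17.9%, Wilson interval 7.88 to 35.6%). Among the 40 pairs of stretches of the list that lie 40 to 80 kb apart and have at least 28 bin pairs, this one included, 10 had 5 or more loops, and the median was 2. This set was defined after the values were seen. Next came 4 loops with 5 contacts between the upstream stretch and the bins from 54936001 to 54942000, at spans of 90 to 100 kb. Of the 83 joined pairs with an end in the window, 73 rested on 1 loop (88.0%, Wilson interval 79.2 to 93.3%), against 91.0% in the list.

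Farther upstream, the bin from 54938001 to 54940000, centred 147.7 kb before the 5′ end, had 8 loops with 9 contacts and a coverage of 26. It was joined to 6 upstream bins and, over the promoter, to 55112001 and 55120001 in the first intron. The bin farthest upstream, 54840001 to 54842000, had 4 loops, none to another upstream bin. They ended in the first intron at 55120001 (280 kb) and 55202001 (362 kb) and downstream of EGFR at 55282001 (442 kb) and 55432001 (592 kb).

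In the first intron, loops met at the bins 55120001 and 55178001. The bin from 55120001 to 55122000, centred 34.3 kb from the 5′ end, had 8 loops and a coverage of 66, with 4 partners upstream and 4 in the first intron. The bin from 55178001 to 55180000, 92.3 kb from the 5′ end, had 7 loops and a coverage of 76. Its partners were 55036001 upstream, 4 bins of the first intron, with 55088001 beside the promoter among them, and 2 bins beyond the window. These bins and the pair at the 5′ end were the 4 with the highest coverage of the locus, from 66 to 100 counts, and no upstream bin exceeded 41. Coverage is known for the 53 bins that were the first bin of a loop and not for the other 16.

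**Figure D2:**
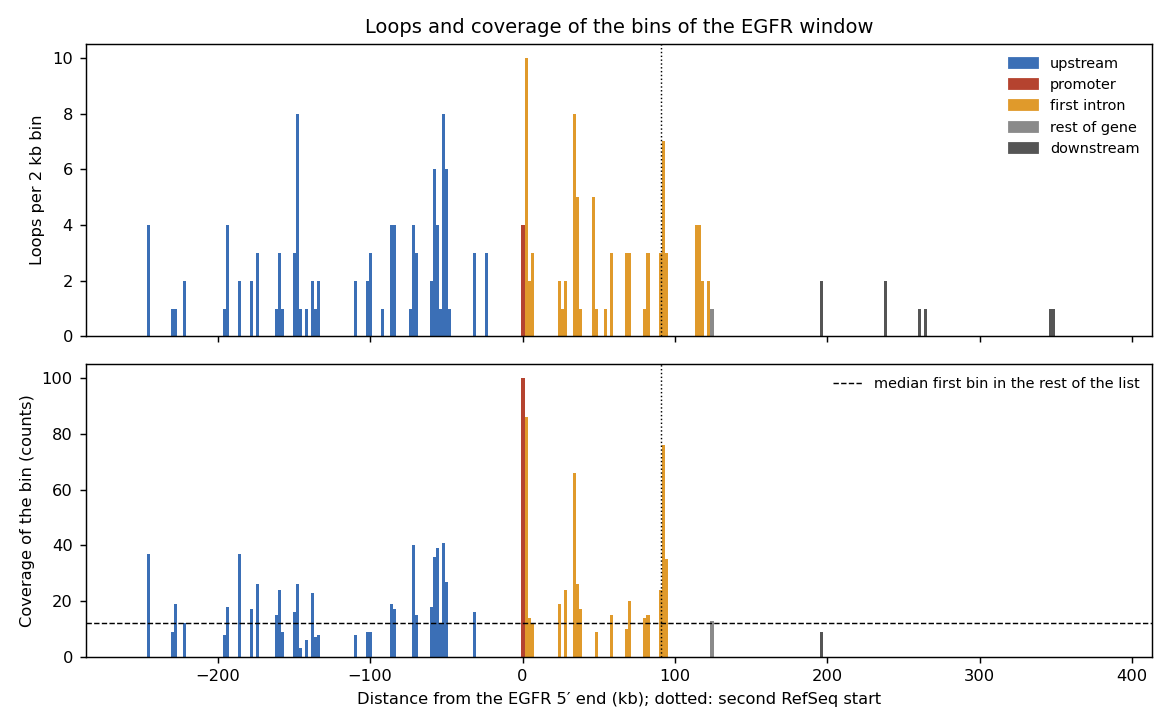
Loops per bin of 2 kb (top) and coverage in counts (bottom, only for first bins of a loop) against distance from the EGFR 5′ end (kb), with the parts of the window in colour. The 5′ end bin has the highest coverage, 100, with 4 loops, and the bin after it has the most loops, 10, with a coverage of 86.

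The second RefSeq start lies 90.8 kb after the first on GRCh38. The same distance from the hg19 5′ end falls in the bin from 55176001 to 55178000, which touches the bin with coverage 76. The bin of the second start had 3 loops, 1 to the upstream part and 2 to the first intron, and 18.3% of all bins with a loop had as many. Its stretch, from 55176001 to 55182000, had 13 loops (Poisson interval 6.92 to 22.2), 2 upstream, 8 in the first intron and 3 beyond the window. Of these loops, 7 were those of the bin 55178001. Of windows of 3 adjacent bins with a loop, 1.07% had as many as the stretch. Every bin of the stretch has a loop by definition, whereas such a window needs only 1 loop. The stretches of both starts were joined by 1 loop with 1 contact, from 55088001 to 55178001, with a span of 90 kb. Whether the second start is used in these cells was not measured by the list.

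Of the 69 looped bins in the window, 7 (10.1%, Wilson interval 5.0 to 19.5%) had 6 or more loops, against 3.05% of all bins with a loop in the list. Bins with a single loop made up 31.9% (22.1 to 43.6%) at the EGFR locus and 59.2% (58.7 to 59.7%) in the list, and these intervals did not overlap. The window was chosen around a gene known to have loops, and its bins share loops with one another, so these shares describe the locus and are no test. Across the 53 first bins of the window, coverage and the number of loops starting at a bin had a Spearman correlation of 0.53, and across all 21636 first bins it was 0.35. The points share libraries and neighbouring bins share loops.

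Loops passed over the EGFR promoter more often than they ended in it, as they did over the bins on either side. Of the 101 loops, 30 (Poisson interval 20.2 to 42.8) had a bin on each side of the promoter, and 24 of these joined the upstream part to the first intron. Of the loops with both bins in the window, 36 passed over each bin from 55018001 to 55026000, the most at any place. Counted this way, 30 and 28 passed over the promoter bins. The median was 23.5 over upstream bins and 25 over first-intron bins. The bin 55088001, with the most loops ending in it (10), had 24 passing over it. The loops inside the window fell from 18 before the end of the first intron to 6 over every bin of the rest of the gene. With all 101 loops counted, 25 passed over bin 55198001 and 13 or 14 over the bins of the rest of the gene. When the whole stretch at the 5′ end was taken in place of the promoter, 22 loops passed over it and 19 ended in it.

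**Figure D3:**
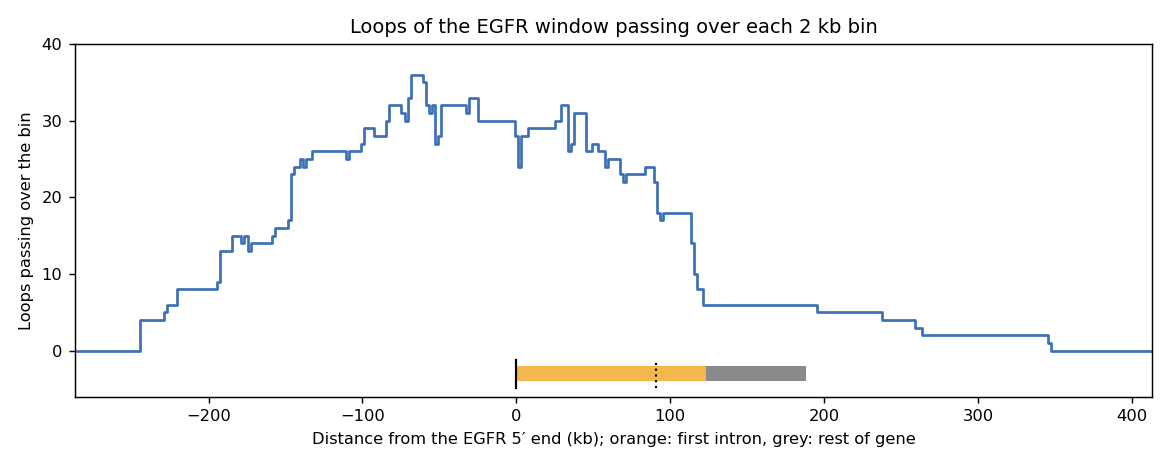
Loops with both bins in the window that pass over each bin of 2 kb, against distance from the EGFR 5′ end (kb), with the gene as a bar. The line peaks at 36 loops upstream of EGFR, lies at 28 and 30 over the promoter bins and at 6 over the rest of the gene.

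The contacts behind these loops were few. Loops with 2 or more contacts numbered 2 of 101 (1.98%, Wilson interval 0.545 to 6.93%), against 3.36% of all loops of the list, and the interval takes in the share of the list. Both lay upstream, from 54938001 to 55034001 (96 kb) and from 55028001 to 55038001 (10 kb), and each had 2 contacts. The other 99 loops rested on 1 contact, which has a Poisson interval of 0.0253 to 5.57. No pair without a contact can be in the list, and this interval takes no account of that.

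The spans of the EGFR loops were concentrated at intermediate distances. The median span was 72 kb (interquartile range 32 to 172 kb) at EGFR and 120 kb (36 to 398 kb) in the rest of the list. Loops of 50 to 200 kb made up 46.5% at EGFR (Wilson interval 37.1 to 56.2%) and 29.6% in the rest of the list, and loops of 1 to 5 Mb made up 2.97% (1.02 to 8.37%) and 11.7%. Shares of joined pairs were counted over bins that have a loop, so they do not bear on why the window had many loops. Of these pairs 10 to 50 kb apart, 8.66% were joined at EGFR (6.23 to 11.9%) and 11.6% elsewhere (11.4 to 11.8%). At 50 to 200 kb the shares were 4.01% (3.03 to 5.29%) and 3.95% (3.87 to 4.02%), and at 200 kb to 1 Mb they were 1.70% (0.978 to 2.96%) and 0.974% (0.954 to 0.994%). The longest class is unlike in range, since pairs inside the EGFR window reach at most 700 kb and 12 of the 18 EGFR loops of this class had both bins in the window. The intervals overlapped in all 3 classes, although in the longest the share of the rest lay just below the lower limit at EGFR.

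**Figure D4:**
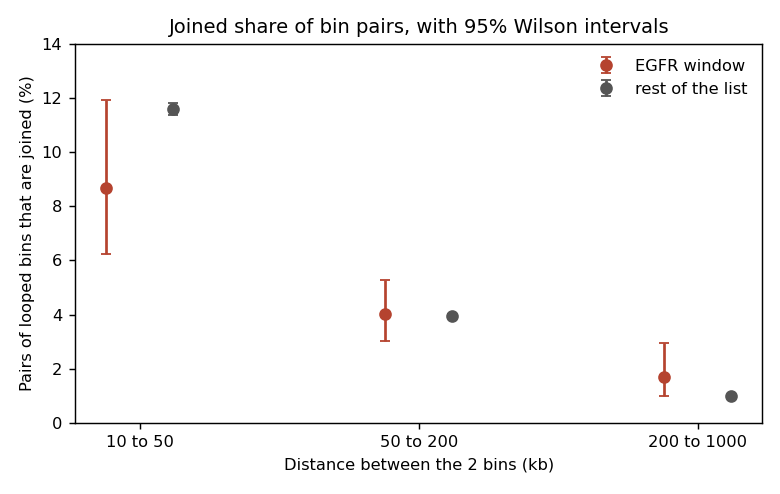
Share of pairs of looped bins that are joined by a loop (%), by the distance between the bins (kb), for the EGFR window (red) and the rest of the list (grey), with 95% Wilson intervals. The values fall with distance in both, and the intervals overlap in each class. Pairs inside the EGFR window reach at most 700 kb, so the longest class covers a shorter range there.

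The number of loops was high for a window of this width. Of the 2662 windows of 700 kb with a loop, tiled along all chromosomes, 51 (1.92%, Wilson interval 1.46 to 2.51%) had at least 101 loops, and the median was 7. On chromosome 7, 3 of 149 windows had as many. The window of the same width below the EGFR locus had 4 loops, and the one above it had 35. The coverage of the first bins at EGFR had a median of 17 (interquartile range 12 to 26, 95% interval of the median 14 to 23), against 18 in the window above (interval of the median 11 to 21, 21 first bins), 12 in the window below (6 to 16, 4 first bins), 14 in the rest of chromosome 7 (interval of the median 13 to 14) and 12 in the rest of the list (12 to 13). The intervals of EGFR and of the rest of chromosome 7 touched at 14. The copy number of the locus in KYSE180 was not analysed here, and its part in these values was not tested.

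**Figure D5:**
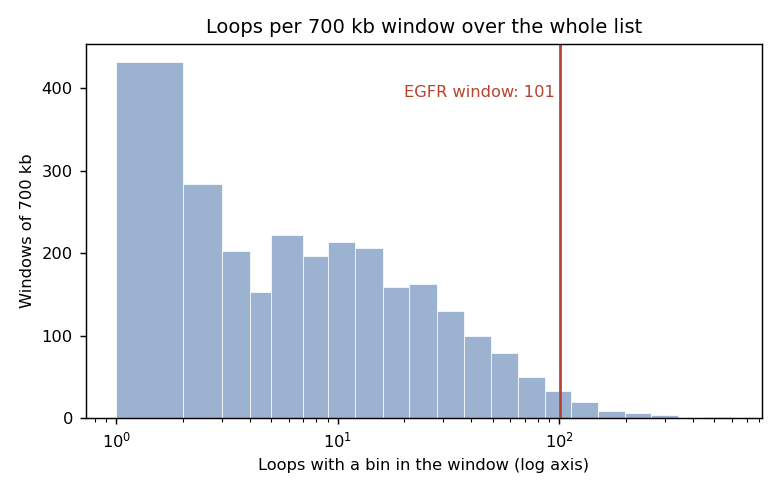
Number of windows of 700 kb by how many loops have a bin in them (log axis, bars of unequal width), over all chromosomes, with the EGFR window as a red line. The EGFR window, with 101 loops, lies in the upper tail.

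Of the 9 loops that left the window, 8 ran to higher positions, and 1 joined a bin downstream of EGFR to 54754001. The first intron had 5 of them and the adjacent bin at 55210001 had 1, with spans of 474 to 1086 kb. The bin 55178001 was joined to 56020001 (842 kb) and 56264001 (1086 kb). A region of 12 kb at 56130001 to 56142000, picked out after the values were seen, took 3 loops from separate places of the locus. They came from 54926001 upstream (1208 kb) and from 55124001 (1016 kb) and 55168001 (962 kb) in the first intron. The region takes in the stretch 56130001 to 56136000 and the first bin of the stretch 56140001 to 56146000, and these stretches do not touch. Its bins 56134001, 56140001 and 56130001 had 1, 4 and 3 loops in the list. How often such a region has as many loops was not counted. Each of the 9 loops that left the window had 1 contact, and the promoter had 0 loops beyond the window.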

How the data were processed

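H3K27ac HiChIP of KYSE180 with a non-targeting siRNA gave 2 libraries of 1 group. According to the methods and labels, the authors used HiC-Pro for the reads and FitHiChIP (Peak-To-All mode) for loops described as p63-associated, of which they kept those with H3K27ac on each of the ends. The submitters' processing notes name hg19. Versions and thresholds are not given in the sources used here. The 1 deposited list holds 2 columns of counts without normalization, which were read from FitHiChIP's column order as contacts and coverage of the first bin. Contacts exceeded the coverage in 0 of 21636 first bins. The list pools both libraries and shows no depth.

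Loops were counted by part of the EGFR locus, with 95% Wilson intervals for shares, exact Poisson intervals for counts and order-statistic intervals for medians. These cover counting error only, and PCR duplicates are not independent molecules. Touching bins were merged into stretches, and for a count of 0 the upper limit was 3 counts. The given genome and annotation (GENCODE 44, RefSeq) are on GRCh38, so only lengths, names, gene order and RefSeq promoter sequences were taken from them, and no position was converted. The planned counts for other genes of the EGFR pathway need hg19 gene positions and were not run. Named were EGFR, its neighbours and the 5 bins with the most loops. Other bins were named as their partners or for their position, after their values were seen. The locus, parts and alternatives were chosen with earlier results of these data known. The counting was tested on simulated data. The software was matplotlib 3.10.9, numpy 2.4.6, scipy 1.17.1 and pandas 2.3.3 under Python 3.11.15.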

Additional observations from a re-analysis of the deposited data

How the results depend on the processing

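Of 25 recomputed values of 8 results, 15 stayed within 1.5 times a count or within the interval of a share or median, and 10 moved. No paired analysis was possible because the list pools the libraries, which had one condition, and no replicate could be left out. With at least 2 contacts, the locus had 2 loops, the promoter 0, the first intron 0, and 0 passed over the promoter, so every loop counted for these last 3 rests on a single contact. Bins within 5 kb of the 5′ end had 16 loops and the whole stretch there, an alternative chosen after seeing the data, had 19, in place of 4, since wider windows hold the bin with 10 loops. The share of windows of the list with as many loops as the promoter was 9.33% for the 5′ end bin alone, 1.16% within 5 kb and 0.483% for the stretch, in place of 15.3%. With looped bins counted in place of loops, 1.31% of windows had as many as the EGFR window, in place of 1.92%. The end of the first intron rests on GRCh38 lengths, and the last bin counted to it, 55208001 to 55210000, would reach exon 2 within its last bases.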
